A study of Mus musculus with 22 samples.

Results

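The response to refeeding was measured in sorted pancreatic β-cells of mice whose other islet endocrine cells had been ablated, by setting 6 refed mice treated with diphtheria toxin (DT) against 6 fasted DT mice. These 12 libraries, 1 per mouse, are 12 of the 22 libraries of the series, and they were chosen by their labels, not by any measured value. Of 52327 genes in the count table, 14064 had enough counts to be tested, and all of these were compared. All 22 mice were males of 3 months on a mix background and carried GluDTR+, SstDTR htz and PpyDTR htz, receptor alleles named for glucagon, somatostatin and pancreatic polypeptide. The control mice (5 fasted and 5 refed) carried the same alleles, and the labels call their first treatment Control without saying whether they were injected. Cells were taken at the time labelled one month post ablation, after 8 h without food or after the same fast and 2 h of refeeding. The labels do not give the insertion site or promoter of the receptor alleles, and mice numbered 6 to 11 are the fasted DT mice and mice 13 to 17 and 20 the refed DT mice. No label ties a mouse to a litter, sort day or sequencing run, so p-values measure the spread between these mice.

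β-cells make and secrete insulin, and a meal brings them glucose, amino acids, gut hormones and nerve signals after a period in which fatty acids are a main fuel. Glucose metabolism and receptors that raise cyclic AMP act on transcription through calcium, protein kinase A and CREB, while insulin and nutrients act through AKT, which keeps FoxO factors out of the nucleus, and through mTORC1, which drives ribosome production and restrains autophagy. Proinsulin is folded in the endoplasmic reticulum (ER), so a rise in insulin synthesis loads the ER chaperones and the secretory route.

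Total counts lay between 16584117 and 23488749 in fasted DT mice and between 18995892 and 24988880 in refed DT mice. Levels are given as counts relative to library size (CPM), with library sizes scaled by the TMM method. CPM is not corrected for gene length, so it compares a gene between mice and not genes with each other. Refed mouse 13 stood apart: Ins1 and Ins2 took 69.4% of its counts, against 40.3 to 50.1% in the other 11 DT mice, 15863 genes had a count, and its TMM factor was 0.566, so that its CPM values are scaled up. Refed mouse 20 had the highest share of mitochondrial counts, 1.59%, and a summed level of the immune markers of 405 CPM, of which Lyz2 gave 200 CPM. Both mice also stand apart in the lists shown per mouse, and the main counts are therefore given with and without them. Along the second principal component of log2 CPM, which held 14.4% of the variance, 8 libraries formed a set of their own (fasted DT mice 6, 7 and 8, refed DT mice 13 and 16, control mice 4, 5 and 21), with low Rac1, Zxdc and Arf6. No label names this set. Summed acinar markers ran from 125 over 2836 (median) to 22699 CPM in fasted and from 86.1 over 10731 to 43311 CPM in refed DT mice, and 15 of 15 acinar markers missed the threshold in edgeR and in DESeq2. In bulk libraries, fewer cells of a type and less RNA per cell cannot be told apart. The part of acinar RNA in the results below was not tested, and a fit with the summed acinar markers as a covariate called 1355 genes higher and 1707 lower.

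Refeeding changed the RNA of many genes in DT mice in both directions. With edgeR's quasi-likelihood test and a Benjamini-Hochberg adjusted p under 0.05, 1521 of 14064 genes (10.8%) were higher and 1905 (13.5%) lower in refed than in fasted DT mice, 3426 (24.4%) in all. Changes over 2-fold were reached by 278 of the higher and 699 of the lower genes, and the median size of a called change was 0.70 on the log2 scale. The median change of all tested genes was −0.06. The values of the 6 fasted and 6 refed mice did not overlap for 563 genes with higher refed levels (4%) and 859 with lower ones (6.11%). Of the called genes, 1082 higher and 1273 lower ones were called in every fit that left out 1 of the 12 DT mice. Without mice 13 and 20, 2292 genes were called higher and 1905 lower, so the larger side changed with these 2 libraries: 44.4% of the calls were higher with them and 54.6% without them. Leaving out mouse 13 alone gave 2403 higher calls.

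**Figure D1:**
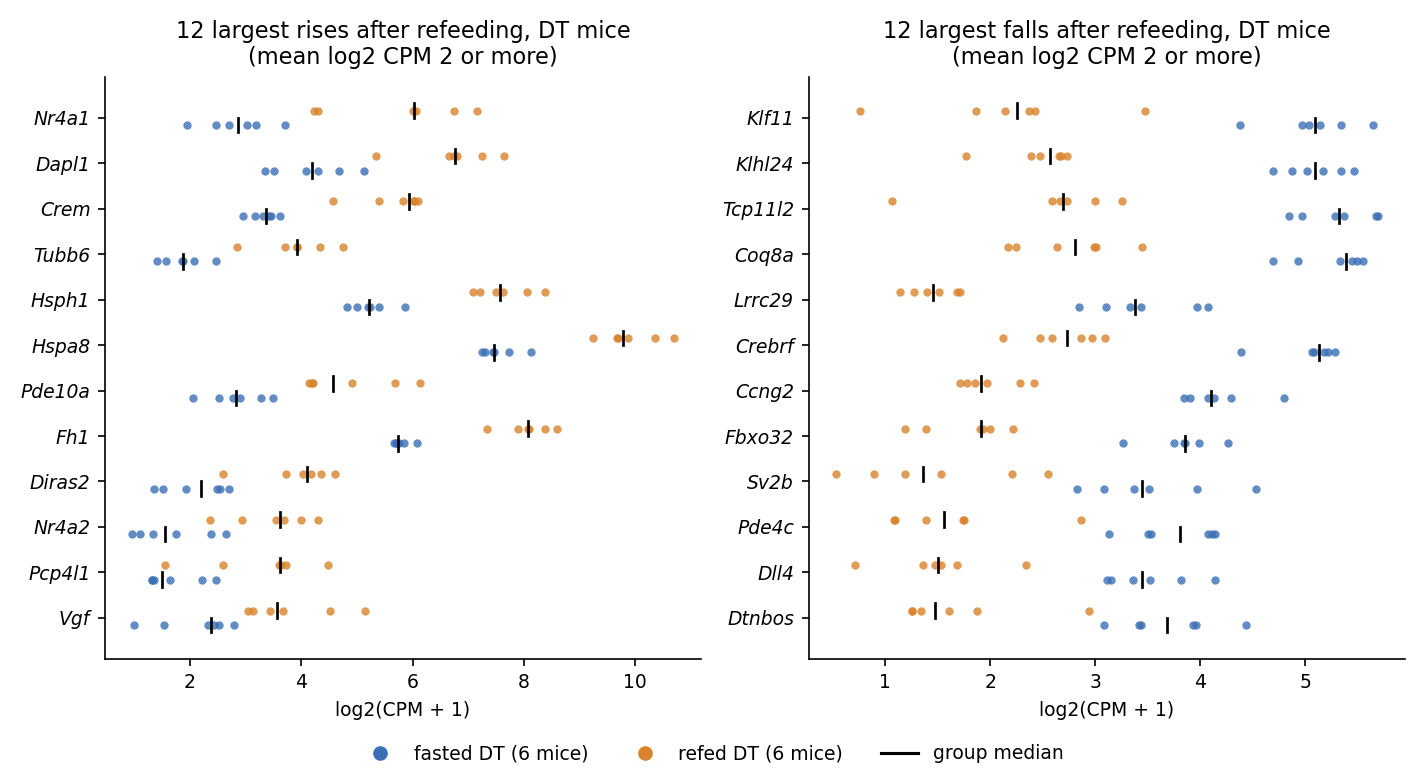
Level in each DT mouse of the 12 genes with the largest rises (left) and the 12 with the largest falls (right) among genes of mean log2 CPM 2 or more that were called in every fit without 1 DT mouse, as log2(CPM + 1) on the horizontal axis, for 6 fasted (blue) and 6 refed (orange) mice, with a black bar at the group median. For 9 of the 12 rises and for all 12 falls shown, the highest value of the lower group lies below the lowest of the higher group. Diras2, Nr4a2 and Pcp4l1 overlap. Over all tested genes the groups were apart for 4% with refed higher and 6.11% with refed lower. The genes shown were picked for large changes that kept their call, which favours groups that are apart.

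The genes shown are the 12 largest changes in each direction among genes with a mean log2 CPM of 2 or more in DT mice that were called in every fit without 1 DT mouse. Genes of lower level, such as Sik1, Oxtr and Spry4 described below, had larger changes. These 12 rises included nuclear receptors, cyclic AMP response genes and chaperones. Nr4a1 (chr15:101253902-101274795), an orphan nuclear receptor rapidly induced by calcium and cyclic AMP, stood at 2.86 (lowest), 6.34 (median) and 12.1 (highest) CPM in fasted and 17.8, 64.5 and 142 CPM in refed DT mice. The groups did not overlap, and the rise was 3.36 ± 0.63 on the log2 scale (± SE, edgeR adjusted p = 0.000698). Its relative Nr4a2 went from 0.952, 1.96 and 5.29 CPM to 4.15, 11.3 and 18.6 CPM, a rise of 2.09 ± 0.45 (edgeR adjusted p = 0.00179), and here the groups overlapped. Crem, whose short isoforms repress cyclic AMP response genes, rose by 2.53 ± 0.21 (edgeR adjusted p = 6.4e-08), from 6.75, 9.34 and 11.3 CPM to 22.8, 60.1 and 67.6 CPM. Every refed mouse was at least as high as 22.8 CPM, above the highest fasted mouse. Pde10a, which breaks down cyclic nucleotides, rose by 2.36 ± 0.37, from 3.15, 6.15 and 10.3 CPM to 16.6, 23.4 and 69.2 CPM.

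Fh1 (chr1:175601378-175625635), the fumarate hydratase of the citric acid cycle, had the smallest standard error among the 12. It stood at 49.8, 52.6 and 66.4 CPM in fasted and 161, 269 and 385 CPM in refed DT mice, a rise of 2.33 ± 0.15 (edgeR adjusted p = 2.94e-09), without overlap. Dapl1 rose by 2.64 ± 0.36, from 9.18, 17.4 and 34.1 CPM to 39.7, 108 and 198 CPM. Tubb6, a β-tubulin, rose by 2.46 ± 0.29, from 1.66, 2.66 and 4.53 CPM to 6.22, 14.1 and 26.1 CPM. Neither gene had overlapping groups. Vgf, a granule protein that is cut into several neuropeptides, rose by 2.07 ± 0.40, with fasted values of 1.01, 4.21 and 5.91 CPM and refed values of 7.26, 10.9 and 34.4 CPM. Diras2, a small GTPase, rose by 2.12 ± 0.36 and Pcp4l1 by 2.08 ± 0.51, both with overlap between the groups.

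Cytosolic chaperones completed the 12 rises. Hsph1, which exchanges the nucleotide of Hsp70 proteins, stood at 27.3, 36.3 and 57.3 CPM in fasted and 135, 188 and 333 CPM in refed DT mice, a rise of 2.45 ± 0.28 (edgeR adjusted p = 3.35e-06). Hspa8, the constitutive Hsp70, went from 150, 175 and 280 CPM to 604, 878 and 1658 CPM, a rise of 2.42 ± 0.25 (edgeR adjusted p = 7.8e-07). For both, the lowest refed mouse was more than 2-fold above the highest fasted one. Hspa8 has many near-identical pseudogenes, so its counts depend on how the submitters' counting treated shared reads. Of 15 tested heat shock genes, 10 passed the test, all 10 of them higher, and the median change of the 15 was 1.13, against −0.06 over all tested genes. The same 10-gene count was reached without mice 13 and 20. Hsp90aa1, the inducible Hsp90, rose by 1.57 ± 0.17, from 91.1, 110 and 142 CPM to 215, 309 and 498 CPM. Hspd1, the mitochondrial Hsp60, rose by 0.99 ± 0.11, from 84.2, 88.9 and 96.4 CPM to 144, 172 and 246 CPM. The highest value, 246 CPM, was that of mouse 16. The classical stress-inducible genes Hspa1a and Hspa1b, named after their values were seen, had changes of −0.13 ± 0.42 and 0.16 ± 0.48 and did not pass the test (edgeR adjusted p = 0.851 and 0.846).

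Promoters of 3 heat shock genes held the letters bound by heat shock factors, and those of Hsph1 and Hspd1 are shown because both genes are described above. They come from the RefSeq table of 300-base windows on GRCm38.p6, the build of the count table, which span 250 bases before to 50 after a start site. Capitals mark matches to a motif of 3 units, GAANNTTC followed by 2 bases of any kind and GAA, or to its reverse complement, where N is any base. The Hsph1 window lies at chr5:149636287-149636586 and the Hspd1 window at chr1:55087883-55088182, both on the minus strand and each 1 of 2 windows of its gene. In Hsph1 the match begins 37 bases after the start site. In Hspd1 there are 2 overlapping matches, the first beginning 144 bases before it.
Hsph1: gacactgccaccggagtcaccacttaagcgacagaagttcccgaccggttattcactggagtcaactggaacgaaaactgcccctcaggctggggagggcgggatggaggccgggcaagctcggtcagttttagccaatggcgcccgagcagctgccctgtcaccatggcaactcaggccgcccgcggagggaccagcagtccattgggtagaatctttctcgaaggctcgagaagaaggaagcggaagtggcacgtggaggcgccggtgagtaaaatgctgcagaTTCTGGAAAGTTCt
Hspd1: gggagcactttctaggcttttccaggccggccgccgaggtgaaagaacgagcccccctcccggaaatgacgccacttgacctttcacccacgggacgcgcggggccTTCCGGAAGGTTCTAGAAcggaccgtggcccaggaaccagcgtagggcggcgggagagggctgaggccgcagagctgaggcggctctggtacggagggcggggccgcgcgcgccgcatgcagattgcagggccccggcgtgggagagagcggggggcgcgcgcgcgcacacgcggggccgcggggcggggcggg
Of the 15 tested heat shock genes, 11 had a window in the table, 17 windows in all, and 4 of these windows (23.5%, of 3 genes) held the element on either strand. Over all tested genes, 10502 had a window, and 0.503% of their 13508 windows held it. The shorter GAANNTTC, which the longer motif contains, was in 10 of the 17 windows (58.8%) and in 5.69% of all. Other windows of the same gene can overlap, and a match to letters is a description and no measured binding.

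The 12 falls included transcription factors, ubiquitin ligase components and an atypical cyclin. Klf11 (chr12:24651371-24662782), a transcription factor of the Krüppel-like family, stood at 19.7, 33.0 and 49.0 CPM in fasted and 0.691, 3.79 and 10.1 CPM in refed DT mice, a change of −3.00 ± 0.37 (edgeR adjusted p = 9.64e-06). Klhl24 (chr16:20097553-20129226), an adaptor of a ubiquitin ligase, fell by 2.88 ± 0.23 on the log2 scale (edgeR adjusted p = 2.29e-08), from 24.8, 33.2 and 43.0 CPM to 2.42, 4.93 and 5.65 CPM. Tcp11l2 changed by −2.84 ± 0.32, from 27.7, 39.1 and 50.5 CPM to 1.10, 5.49 and 8.56 CPM. None of these 3 genes had overlapping groups. Coq8a, needed for the synthesis of coenzyme Q, went from 24.9, 40.8 and 45.7 CPM to 3.51, 6.07 and 9.87 CPM, a change of −2.63 ± 0.26. Crebrf, a regulator of the ER-bound factor CREB3, changed by −2.53 ± 0.23, from 19.9, 34.0 and 37.9 CPM to 3.36, 5.66 and 7.54 CPM. Ccng2, an atypical cyclin linked to cell cycle arrest, changed by −2.50 ± 0.23, from 13.3, 16.2 and 26.8 CPM to 2.27, 2.77 and 4.36 CPM. Fasted and refed mice were apart in all 3.

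The others of the 12 falls were those of Lrrc29 (−2.56 ± 0.26), Fbxo32 (−2.43 ± 0.30), Sv2b (−2.42 ± 0.47), Pde4c (−2.42 ± 0.37), Dll4 (−2.40 ± 0.32) and Dtnbos (−2.32 ± 0.40), each without overlap. Fbxo32 is the ubiquitin ligase atrogin-1, and it went from 8.62, 13.4 and 18.2 CPM to 1.29, 2.77 and 3.66 CPM. Sv2b is a vesicle glycoprotein, Pde4c a cyclic AMP phosphodiesterase and Dll4 a Notch ligand. Dtnbos is an opposite-strand transcript of Dtnb, and since the strand setting of the counting is not given in the sources used here, its reads cannot be told from those of overlapping genes. Mouse 13 had the highest refed level of Pde4c (6.31 CPM) and of Dtnbos (6.67 CPM), far above the other 5 refed mice.

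Letters that FoxO factors bind in insulin-repressed genes were searched in the same way, and the promoters of Ccng2 and Coq8a are shown because they hold one. Capitals mark CAAAACAA or its reverse complement TTGTTTTG. The Ccng2 window lies at chr5:93267323-93267622 on the plus strand, with the match beginning 16 bases before the start site. The Coq8a window lies at chr1:180193436-180193735 on the minus strand, with the match beginning 197 bases before it, and is 1 of 2 windows of the gene.
Ccng2: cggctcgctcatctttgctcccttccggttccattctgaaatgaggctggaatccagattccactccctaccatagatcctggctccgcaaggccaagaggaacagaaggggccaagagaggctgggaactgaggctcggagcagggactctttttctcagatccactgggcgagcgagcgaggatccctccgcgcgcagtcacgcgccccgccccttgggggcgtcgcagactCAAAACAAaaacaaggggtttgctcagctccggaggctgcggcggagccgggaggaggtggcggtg
Coq8a: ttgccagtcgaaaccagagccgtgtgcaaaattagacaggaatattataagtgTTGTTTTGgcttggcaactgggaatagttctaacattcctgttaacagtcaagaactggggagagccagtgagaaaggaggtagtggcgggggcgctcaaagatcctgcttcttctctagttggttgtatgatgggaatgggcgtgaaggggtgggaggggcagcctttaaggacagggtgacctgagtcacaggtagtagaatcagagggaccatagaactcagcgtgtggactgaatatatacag
Of these 12 falls, 8 genes had a window in the table, and 4 of their 12 windows (33.3%, of 4 genes) held these letters, against 1.7% of all 13508 windows and 1.98% of those of the 1905 called-lower genes. Another forkhead element, GTAAACA, was searched as well, and among these falls it was found only for Pde4c. It was in 2.8% of all windows and 3.91% of those of called-lower genes. On the rising side, the cyclic AMP response element TGACGTCA was in 5.45% of the windows of called-higher genes and 3.09% of all windows, and in 2 of 40 windows (5%) of the CREB list described next. Of the other motifs searched, some were also more frequent there, such as TGACG (41.4% against 30.7%) and CACGTG (12.8% against 9.69%). Some were less frequent, such as GTAAACA (2.17% against 2.8%). Called-higher genes had a median mean log2 CPM of 4.67, against 3.47 over all tested genes, and the part of level was not tested.

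Genes of cyclic AMP signalling rose more often than they fell. Of 27 tested CREB and cyclic AMP feedback genes, 10 were higher and 1 lower (median change 0.37). Sik1, a kinase that is induced by CREB and turns off its coactivators, stood at 0.265, 0.906 and 1.78 CPM in fasted and 8.32, 16.3 and 31.3 CPM in refed DT mice, a rise of 4.13 ± 0.59 (edgeR adjusted p = 4.52e-05). Every refed mouse was above every fasted one. Ppargc1a, a coactivator of mitochondrial genes, rose by 1.86 ± 0.29, from 0.812, 2.29 and 3.17 CPM to 5.35, 7.36 and 9.93 CPM, again without overlap. The median of this list in single mice, relative to the fasted mean, ran from −0.43 to 0.24 in fasted and from 0.19 to 0.64 in refed DT mice.

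Feedback genes of the ERK pathway and immediate-early genes behaved less evenly. Of 15 tested ERK feedback genes, 4 were called (26.7%, near the 24.4% over all tested genes), all 4 higher: Spry4 (3.45 ± 0.71), Dusp6 (1.85 ± 0.41), Dusp4 (1.41 ± 0.36) and Errfi1 (0.93 ± 0.28). Spry4, an inhibitor of receptor tyrosine kinase signalling, went from 0.106, 0.641 and 2.73 CPM to 6.81, 11.3 and 17.9 CPM without overlap. The call of Errfi1 ended without refed mouse 15 (0.69, edgeR adjusted p = 0.0545). Of 25 AP-1 and other immediate-early genes, 4 were higher and 5 lower (median −0.35). The share called was 36%, against the 24.4% over all tested genes. Fosl2, an AP-1 subunit, rose by 2.58 ± 0.34, from 0.546, 1.53 and 2.18 CPM to 5.82, 8.48 and 14.7 CPM. Klf10, induced by growth factors, changed by −1.10 ± 0.17, from 31.5, 40.9 and 50.6 CPM to 9.69, 20.03 and 24.2 CPM. Chosen after their values were seen, Fos (−0.36 ± 0.38) and Jun (−0.09 ± 0.27) missed the threshold with edgeR adjusted p of 0.533 and 0.843, and Egr1 had a change of −1.11 ± 0.34 whose call ended without fasted mouse 11 (−0.86, edgeR adjusted p = 0.0676). Without single mice, the number of lower calls in this list fell to 2 (without fasted mouse 11 or refed mouse 14) and to 3 (without fasted mouse 8 or 10 or refed mouse 15 or 17).

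The clock genes included changes in both directions. Of 21 tested, 5 were higher and 5 lower (3 lower without mouse 16), and the share called was 47.6%, against 24.4% over all tested genes. Per1, Per2 and Bhlhe40, repressors of the clock that light and hormones can induce, rose by 1.56 ± 0.31, 1.53 ± 0.27 and 1.89 ± 0.28. Per2 went from 10.4, 12.6 and 15.8 CPM to 22.2, 35.8 and 51.9 CPM. Rora, an activator of the clock, changed by −0.88 ± 0.13, from 35.2, 40.3 and 50.4 CPM to 17.2, 22.6 and 24.8 CPM. In all 4 genes fasted and refed mice were apart. The labels do not give the clock time at which cells were taken, so feeding and hour of the day cannot be told apart. Sgk1, a kinase that glucocorticoids induce, rose by 2.38 ± 0.40, from 0.601, 1.99 and 2.92 CPM to 2.19, 10.2 and 13.8 CPM with overlap, and 3 of 13 tested glucocorticoid-induced genes were called (23.1%, near the 24.4% over all tested genes), all 3 higher (median −0.16).

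Genes that build ribosomes made up the list with the highest share of calls among lists with at least 10 tested members. Of 40 tested ribosome biogenesis genes, 28 rose (median change 0.57, against −0.06 over all genes), and without mice 13 and 20 the number was 32. Nolc1, a nucleolar chaperone of snoRNPs, rose by 1.02 ± 0.10 (edgeR adjusted p = 4.43e-07), from 31.3, 38.9 and 44.8 CPM to 74.4, 76.5 and 90.7 CPM. Nop58, a core protein of box C/D snoRNPs, rose by 0.89 ± 0.10, from 27.1, 33.2 and 36.3 CPM to 50.8, 61.5 and 64.4 CPM. Both had groups apart, as had 18 of the 40 genes, all higher, against 4% of all tested genes. Utp4, of the small subunit processome, and Bysl, needed for small subunit maturation, rose by 0.88 ± 0.12 and 1.14 ± 0.16. In single mice the median of the list ran from −0.12 to 0.08 in fasted and from 0.44 to 0.79 in refed DT mice, with mouse 13 the lowest refed one.

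Ribosomal proteins and translation factors rose by smaller amounts. Of 78 tested cytosolic ribosomal protein genes, 35 rose (median 0.31), and none of these rises exceeded 0.78, that of Rpl27, which went from 23.3, 29.9 and 37.0 CPM to 42.8, 50.9 and 66.6 CPM. That number depended on single mice: it was 18 without fasted mouse 10 and 21 without fasted mouse 9, fasted mouse 11 or refed mouse 16. Ribosomal protein genes have many pseudogenes, so shared reads make single members uncertain. Of 28 translation factor genes, 15 rose and 3 fell (median 0.38). Eif2s1, the α subunit of eIF2, rose by 0.80 ± 0.11, from 32.4, 37.0 and 43.5 CPM to 52.6, 67.4 and 73.6 CPM. The 2 eIF4A helicases moved in opposite directions, with Eif4a1 at 0.78 ± 0.14 and Eif4a2 at −0.55 ± 0.09, both called. Of 20 aminoacyl-tRNA synthetase genes, which charge tRNAs, 7 rose and 1 fell (median 0.14), led by Hars at 0.83 ± 0.13 and Rars at 0.66 ± 0.10.

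Genes of the ER and the secretory route rose more often than they fell. Of 35 tested ER chaperone and unfolded protein response genes, 14 rose and 1 fell (median 0.34), with 17 rises without mice 13 and 20. Creld2, an ER stress protein, went from 41.8, 64.0 and 86.2 CPM to 105, 140 and 276 CPM, a rise of 1.37 ± 0.21 (edgeR adjusted p = 7.01e-05). Ppib, a prolyl isomerase of the ER, rose by 0.90 ± 0.14, from 18.3, 22.9 and 31.8 CPM to 36.9, 44.7 and 52.1 CPM. Both had groups apart. Pdia6, a disulfide isomerase, rose by 0.77 ± 0.13 with overlap, from 402, 429 and 621 CPM to 582, 796 and 973 CPM. Of 43 genes of ER translocation and vesicle coats, 14 rose (median 0.31), among them Sec11a of the signal peptidase at 0.65 ± 0.11 and the KDEL receptor Kdelr2 at 0.63 ± 0.14. This number was 28 without mice 13 and 20 and 31 without mouse 13 alone, whose own median for the list, −0.08, lay below those of the other refed mice. Other single mice ended calls. Named after their values were seen, Srp9, Srp14, Ssr1 and Sec16a were each not called without fasted mouse 9, 10 or 11.

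Proteasome and respiratory chain genes rose by small amounts. Of 32 tested proteasome genes, 14 rose (median 0.27), and the number was 29 without mouse 13 and 28 without mice 13 and 20. Other single mice ended calls. Named after their values were seen, Psmb1, Psmb2, Psmb4 and Psmb6 were each not called without fasted mouse 9, 10 or 11 or refed mouse 16. Psmc5, an ATPase of the regulatory particle, rose by 0.52 ± 0.07 (edgeR adjusted p = 1.35e-05), from 66.7, 75.6 and 85.0 CPM to 102, 109 and 118 CPM without overlap. Of 52 nuclear oxidative phosphorylation genes, 23 rose and 1 fell (median 0.28), and without fasted mouse 11 the rises numbered 15. Cycs, cytochrome c, rose by 1.24 ± 0.18, from 12.3, 19.6 and 28.1 CPM to 33.9, 47.7 and 55.4 CPM. Atp5g1, of the membrane ring of ATP synthase, rose by 1.18 ± 0.18, from 32.3, 41.9 and 61.5 CPM to 73.9, 97.5 and 142 CPM. Neither showed overlap. The 8 tested genes encoded in the mitochondrial genome did not pass (0 called by edgeR and by DESeq2, 0 at an unadjusted p under 0.05), with a median of 0.32. Their median became −0.45, with 2 of 8 called lower, without mice 13 and 20, which had the highest mitochondrial levels among the 12 mice.

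**Figure D2:**
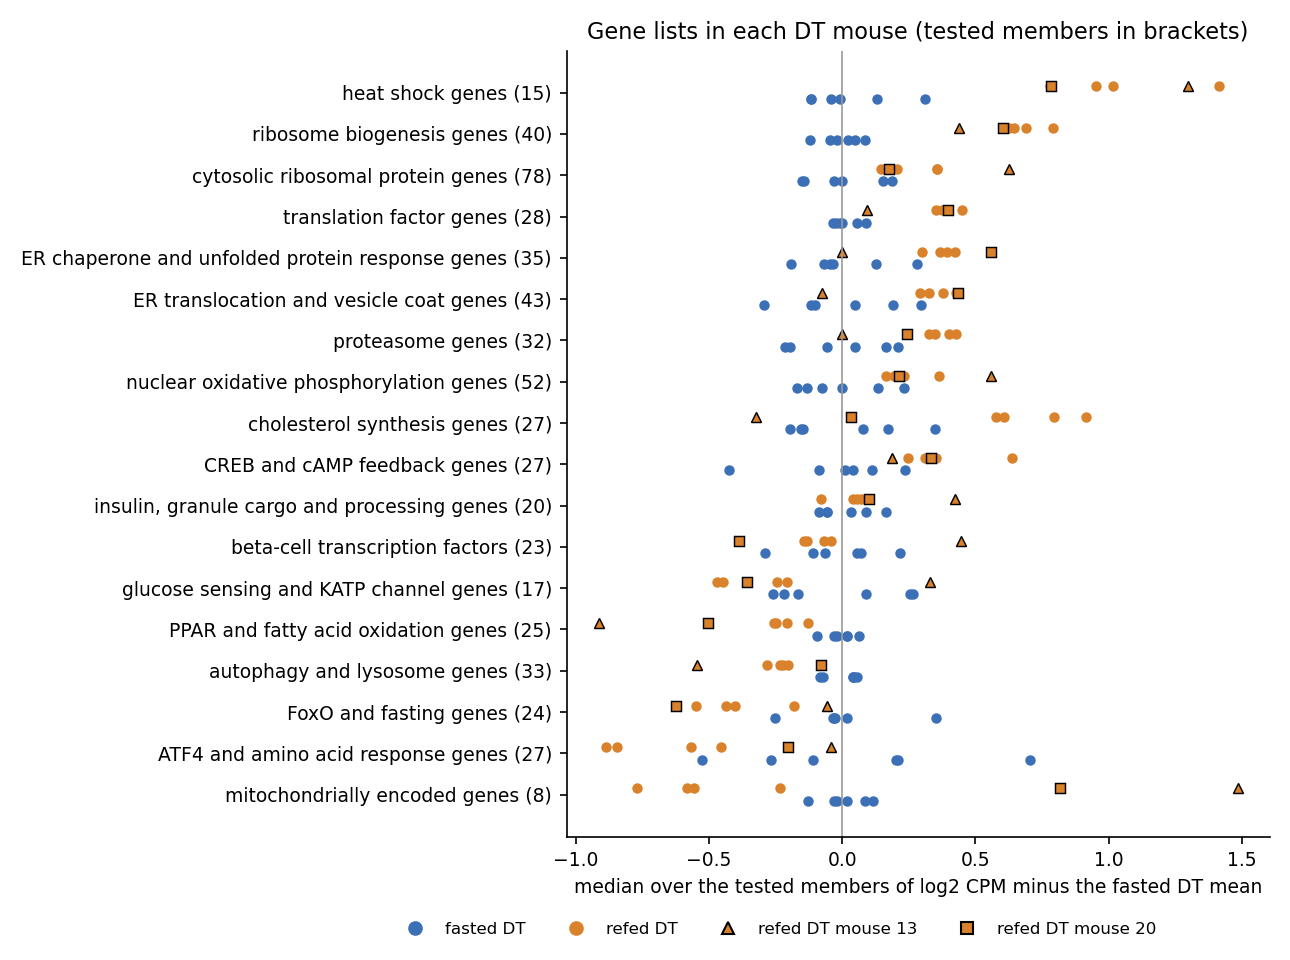
Median over the tested members of each gene list, in log2 CPM minus the mean of the fasted DT mice (horizontal axis), 1 point per DT mouse, blue for the 6 fasted and orange for the 6 refed mice; a triangle marks mouse 13 and a square mouse 20. Heat shock, ribosome biogenesis and translation factor lists lie higher in every refed mouse than in every fasted mouse, while mice 13 and 20 lie apart from the other refed mice in the mitochondrially encoded genes.

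Genes of sterol synthesis rose more often than they fell. Of 27 tested cholesterol synthesis genes, 12 rose and 1 fell (median 0.47), and 16 rose without mice 13 and 20. Pmvk, phosphomevalonate kinase, went from 9.11, 11.5 and 13.1 CPM to 21.5, 28.2 and 31.1 CPM, a rise of 1.28 ± 0.15 (edgeR adjusted p = 3.35e-06). Lss, lanosterol synthase, rose by 1.03 ± 0.15, from 19.4, 23.6 and 30.9 CPM to 37.3, 52.3 and 57.3 CPM. Both had groups apart. Mouse 13 had a list median of −0.32, below every fasted mouse. Of 19 fatty acid synthesis genes, 5 rose and 1 fell (median 0.05): the desaturase Fads2 rose by 1.29 ± 0.30 and the phosphatidate phosphatase Lpin1, also a fasting gene, changed by −1.86 ± 0.23. The share called was 31.6%, against 24.4% over all tested genes. The rises numbered 3 without fasted mouse 9 or refed mouse 14 or 15.

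Of 25 tested PPAR target and fatty acid oxidation genes, 10 passed the test, all 10 of them lower (median −0.26), and without mice 13 and 20 the split was 7 lower and 1 higher. Angptl4, an inhibitor of lipoprotein lipase, was near 0 in refed mice: their 6 libraries held 5 counts in all, with 2 libraries at 0, against 308 counts in fasted mice with 39 to 79 per library. The ratio of fasted to refed CPM was 57.6, with a 95% counting interval of 24.4 to 179. Cpt1a, which admits long-chain fatty acids to mitochondria, went from 73.3, 90.5 and 101 CPM to 32.5, 46.5 and 68.8 CPM, a change of −0.89 ± 0.16 (edgeR adjusted p = 0.000276). Acaa2, the mitochondrial thiolase, changed by −1.04 ± 0.16, from 49.2, 54.0 and 62.9 CPM to 15.3, 26.6 and 39.0 CPM. Hadh, which is abundant in β-cells, changed by −0.60 ± 0.10, from 566, 588 and 616 CPM to 297, 418 and 443 CPM. Fasted and refed mice did not overlap in any of these 4 genes.

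FoxO target and autophagy genes fell more often than they rose. Of 24 tested FoxO and fasting genes, 8 were lower and 2 higher (median −0.38). Besides Ccng2 and Fbxo32, the members named after their values were seen are Pik3ip1, an inhibitor of PI3 kinase, at −1.88 ± 0.41, and Pdk2, which inhibits pyruvate dehydrogenase, at −1.42 ± 0.21. The 2 risers were Gadd45a, a growth arrest gene (1.93 ± 0.19, from 2.53, 3.59 and 5.10 CPM to 9.78, 15.2 and 16.999 CPM), and Pik3r1, the regulatory subunit of PI3 kinase (0.81 ± 0.10, from 22.7, 27.8 and 28.5 CPM to 40.4, 47.7 and 51.3 CPM). Both rises were without overlap. Of 33 autophagy and lysosome genes, 14 fell and 2 rose (median −0.32), and without mice 13 and 20 the counts were 9 and 4. Atg13, a subunit of the ULK1 kinase complex, changed by −1.06 ± 0.13 (edgeR adjusted p = 1.03e-05), from 108, 127 and 141 CPM to 42.1, 58.7 and 75.9 CPM. Atg14, of the PI3 kinase complex that starts autophagosomes, changed by −1.08 ± 0.16, from 13.4, 17.7 and 19.6 CPM to 6.70, 8.22 and 9.60 CPM. Gabarapl1, which coats autophagosomes, changed by −0.89 ± 0.16, and all 3 had groups apart.

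Amino acid response genes fell more often than they rose. Of 27 tested ATF4 and amino acid response genes, 6 fell and 1 rose (median −0.42). The share called, 25.9%, was near the 24.4% over all tested genes. Without mice 13 and 20 the number that fell was 11. Sesn2, which senses leucine, changed by −0.97 ± 0.15 (edgeR adjusted p = 6.92e-05), from 77.6, 95.8 and 112 CPM to 36.7, 46.4 and 69.0 CPM. Slc38a2, a neutral amino acid transporter, changed by −0.93 ± 0.14, from 51.1, 61.9 and 85.4 CPM to 32.5, 33.5 and 34.8 CPM. Pck2, mitochondrial PEP carboxykinase, changed by −0.93 ± 0.15. These 3 had no overlap. The riser was Slc3a2, the heavy chain of several transporters, at 0.45 ± 0.11. The message of Atf4 itself, named after its value was seen, changed by 0.13 ± 0.19 (edgeR adjusted p = 0.649).

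**Figure D3:**
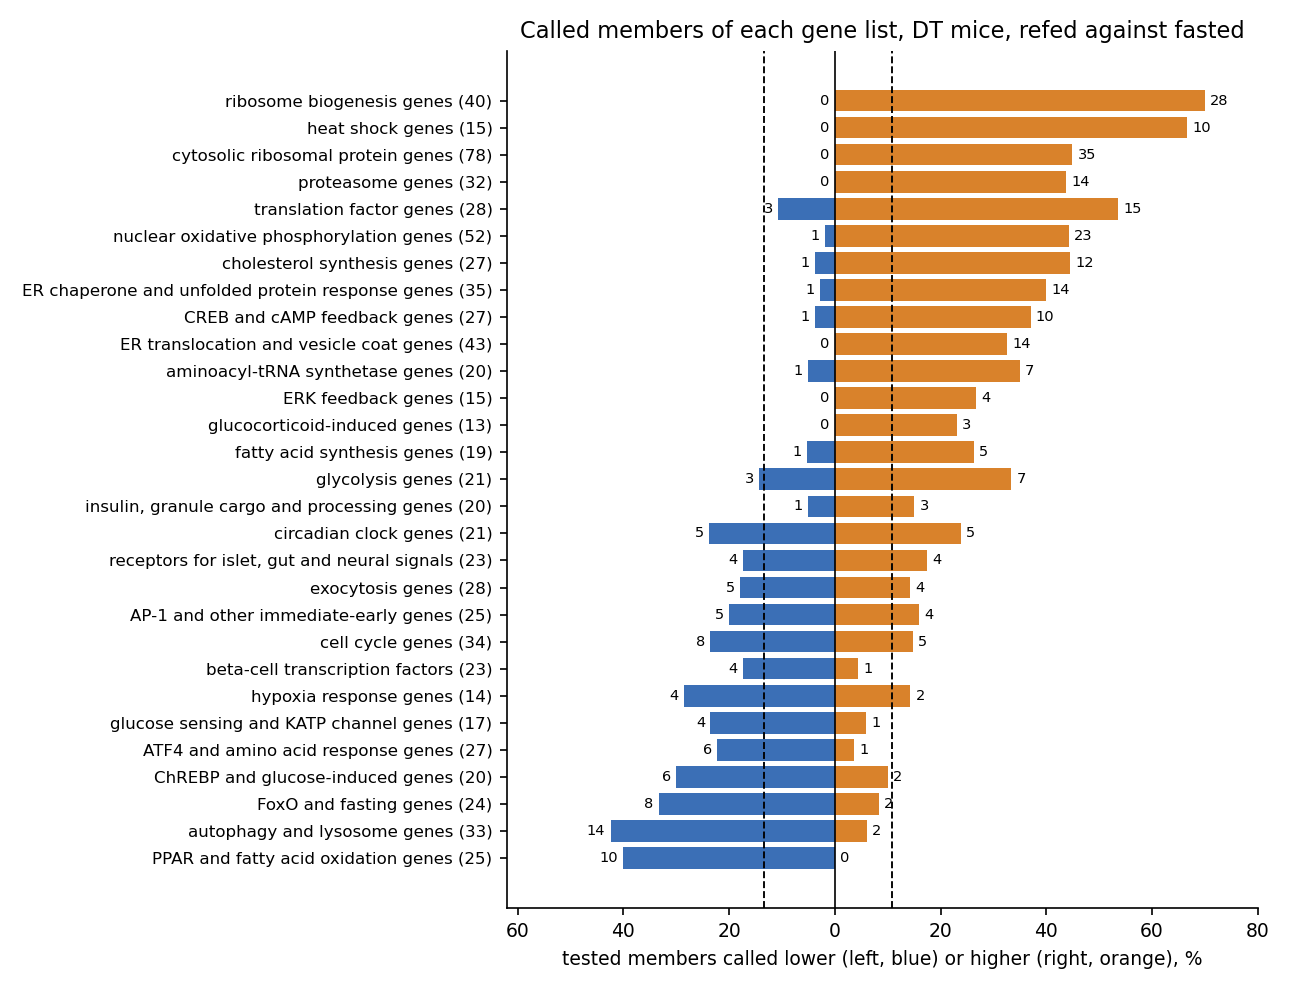
Percent of the tested members of each gene list called higher (orange, right) or lower (blue, left) in refed against fasted DT mice, with the number called at the end of each bar and tested members in brackets; lists with at least 10 tested members are shown, and dashed lines mark the shares over all tested genes, 10.8% higher and 13.5% lower. Ribosome biogenesis (28 of 40) and heat shock (10 of 15) have the longest bars to the right, autophagy (14 of 33) and PPAR genes (10 of 25) the longest to the left.

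The insulin genes did not pass the test, while several genes that carry glucose and zinc did. Ins1 stood at 97494, 104576 and 122206 CPM in fasted and 83689, 108429 and 309546 CPM in refed DT mice (0.35 ± 0.23, edgeR adjusted p = 0.292), the highest being mouse 13. Ins2 had a change of 0.31 ± 0.20 (edgeR adjusted p = 0.278). Together they took 44.9, 47.4 and 50.1% of counts (lowest, median, highest) in fasted and 40.3, 47.7 and 69.4% in refed DT mice. The means differed by 1.83 percentage points (two-sided exact permutation test, p = 0.870), and by −2.14 points without mouse 13 (exact p = 0.247). Slc30a8 (chr15:52295553-52335798), the zinc transporter of insulin granules, changed by −1.11 ± 0.10 (edgeR adjusted p = 1.08e-07), from 1061, 1212 and 1339 CPM to 511, 542 and 672 CPM. Slc2a2 (chr3:28697903-28728361), the glucose transporter GLUT2, changed by −1.34 ± 0.22 (edgeR adjusted p = 0.000170), from 582, 688 and 842 CPM to 151, 251 and 491 CPM. Both had groups apart. G6pc2, the islet glucose-6-phosphatase, rose by 0.74 ± 0.16 with overlap, from 1349, 1556 and 2028 CPM to 1728, 2693 and 3875 CPM. Iapp, amylin, had a change of 0.27 ± 0.08 whose call ended without mouse 16 (0.24, edgeR adjusted p = 0.0509).

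Among other genes of β-cell function, calls of both signs were found. Of 17 glucose sensing and KATP channel genes, 1 rose and 4 fell (median −0.37), among them Atp2a3, the ER calcium pump SERCA3, at −0.58 ± 0.12, and Trpm5, a calcium-activated cation channel, at −1.53 ± 0.40. The share called in this list, 29.4%, was near the 24.4% over all tested genes. For Trpm5 the refed level of mouse 13 was 115 CPM, within the fasted range of 87.5 to 172 CPM, while the refed median was 25.4 CPM. Of 20 ChREBP and glucose-induced genes, 6 fell and 2 rose (median −0.33), and Ppp1r3c, a glycogen-targeting subunit of protein phosphatase 1, went from 3.70, 8.18 and 12.2 CPM to 0.366, 1.37 and 2.35 CPM (−2.53 ± 0.44). Of 21 glycolysis genes, 7 rose and 3 fell (median 0.12), with Gapdh at 0.55 ± 0.12 and Ldhb, a lactate dehydrogenase subunit, at −0.85 ± 0.15. Of 14 hypoxia response genes, 2 rose and 4 fell, with Ankrd37 at −1.79 ± 0.22 and the collagen hydroxylase P4ha2 at 1.02 ± 0.14. The shares called in the ChREBP, glycolysis and hypoxia lists were 40%, 47.6% and 42.9%, against 24.4% over all tested genes.

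Of 28 exocytosis genes, 4 rose and 5 fell (median −0.07), against 10.8% and 13.5% of all tested genes. The share called was 32.1%, against 24.4% over all tested genes. Syt4, a synaptotagmin of dense-core vesicles, rose by 1.26 ± 0.09 (edgeR adjusted p = 6.34e-09), from 47.4, 49.9 and 59.1 CPM to 106, 122 and 149 CPM. Syt5 rose by 1.70 ± 0.20, from 12.6, 18.7 and 25.2 CPM to 39.7, 57.3 and 80.6 CPM. Rab37, a GTPase of secretory vesicles, changed by −1.34 ± 0.15, from 184, 217 and 271 CPM to 71.5, 90.1 and 103 CPM. These 3 had groups apart. Of 23 β-cell transcription factors, 1 rose and 4 fell (median −0.01). The share called, 21.7%, was below the 24.4% over all tested genes. The 4 that fell were Rfx6 (−1.08 ± 0.18), Myt1 (−1.14 ± 0.19), Foxa2 (−0.48 ± 0.10) and St18 (−0.47 ± 0.11), each without overlap. Chosen after their values were seen, Pdx1 (0.19 ± 0.11), Mafa (1.09 ± 0.68), Nkx6-1 (0.22 ± 0.50) and Neurod1 (−0.06 ± 0.12) missed the threshold. Of 23 receptor genes for islet, gut and neural signals, 4 rose and 4 fell, against 10.8% and 13.5% of all tested genes. The lower count was 1 without fasted mouse 8, 9, 10 or 11 or refed mouse 15 or 16 and 2 without refed mouse 17. Oxtr, the oxytocin receptor, went from 0.0529, 0.595 and 2.14 CPM to 3.38, 9.01 and 41.1 CPM, a rise of 4.08 ± 0.75 (edgeR adjusted p = 0.000506) without overlap. Gucy2c, the receptor of guanylin and uroguanylin, rose by 1.03 ± 0.20, and Gcgr, the glucagon receptor, changed by −0.71 ± 0.21.

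Somatostatin lay below every control mouse in all 12 DT mice and glucagon in 11 of 12, while pancreatic polypeptide overlapped control mice. Glucagon (Gcg) stood at 0.0529, 0.146 and 0.833 CPM in fasted and 0, 0.461 and 26.0 CPM in refed DT mice, the last value being mouse 13, against 1.28 to 241 CPM in fasted and 56.0 to 172 CPM in refed control mice. Somatostatin (Sst) had 0 counts in 2 fasted and 3 refed DT mice and 4.71 CPM in fasted mouse 8, against 13.4 to 71.5 CPM in control mice. A count of 0 allows up to 0.274 CPM in the library where this limit is highest, for counting error only. Pancreatic polypeptide (Ppy) stood at 1.04, 3.45 and 10.6 CPM in fasted and 3.46, 13.5 and 32.6 CPM in refed DT mice, against 5.41, 10.6 and 46.7 CPM in fasted and 3.89, 31.0 and 126 CPM in refed control mice. In two-sided exact permutation tests of mean log2(CPM + 1) over 924 splits, adjusted over the 3 genes, refed minus fasted was 0.81 for Gcg (adjusted p = 0.494), −0.33 for Sst (adjusted p = 0.727) and 1.63 for Ppy (p = 0.0130, adjusted p = 0.0390). The smallest p these splits can give is 0.00216. Ppy did not pass in edgeR (1.86 ± 0.73, adjusted p = 0.0674), nor in the permutation test in 10 of 12 sets with 1 mouse left out (1.38 to 1.69, adjusted p up to 0.0714) or without mice 13 and 20 (1.56, adjusted p = 0.143). It passed in DESeq2 (1.90, adjusted p = 0.0270) and in edgeR on the 12 DT libraries alone (1.86, adjusted p = 0.0305). Gcg passed in DESeq2 (4.22, adjusted p = 0.00356) and not in edgeR (4.06, adjusted p = 0.0565), where it was 0.55 without mouse 13 (adjusted p = 0.815). The sign for Sst turned without fasted mouse 8 (0.082). Of the genes listed as α-cell markers, Ttr had a called change of 0.60 ± 0.21 (edgeR adjusted p = 0.0429) that was lost in 8 of 12 fits without 1 mouse (without mouse 7, 8, 9, 10, 11, 14, 16 or 17). The summed α-cell markers were 287 to 569 CPM in fasted and 348 to 708 CPM in refed DT mice. In control mice the sum was 314 to 734 CPM fasted and 316 to 684 CPM refed. The sum thus overlapped between DT and control mice and did not follow Gcg. Most of the sum in DT mice was Ttr, at 260 to 559 CPM in fasted and 329 to 692 CPM in refed DT mice. The part of the α-cell markers in the results was not tested.

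The refeeding response of DT mice was then set beside that of control mice, which are other animals in the same fit. In control mice 1537 genes were higher (10.9%) and 1735 lower (12.3%) after refeeding. Of these, 985 were also higher in DT mice, 64.8% of the DT and 64.1% of the control list, and 1064 also lower, 55.9% of the DT and 61.3% of the control list. Across the 14064 genes, which are not independent, the log2 fold changes had a Pearson r of 0.61 and a Spearman rho of 0.66. Genes called higher in control mice lay above 0 in DT mice in 96.8% of cases (median 0.49), and genes called lower lay below 0 in 96.6% (median −0.64). In single mice, the median over the control-higher genes was −0.15 to 0.14 in fasted DT and 0.36 to 0.61 in refed DT mice, relative to the fasted DT mean. For the control-lower genes it was −0.11 to 0.14 in fasted and −0.73 to −0.54 in refed DT mice. No refed DT mouse overlapped a fasted one in either measure. Of the 1373 genes called in DT mice and not in control mice, 91.0% had the same sign in both.

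**Figure D4:**
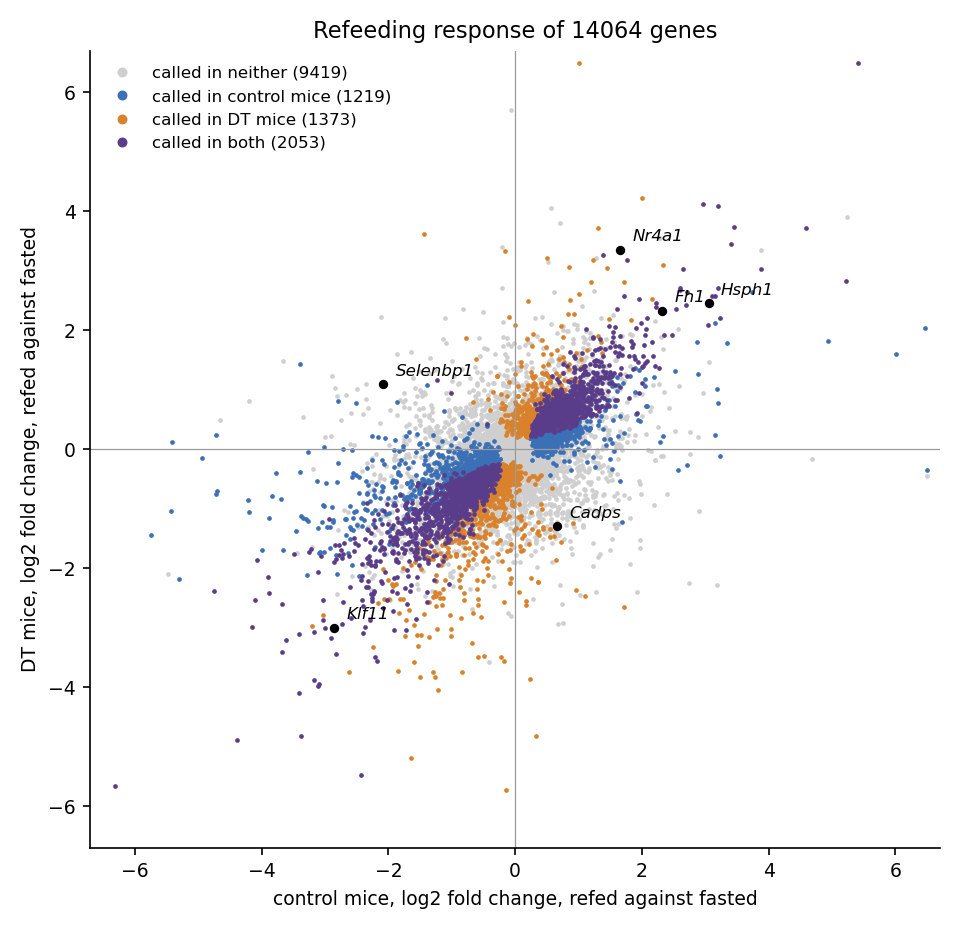
Log2 fold change of refed against fasted mice in control (horizontal axis) and DT mice (vertical axis) for 14064 tested genes, 1 point per gene, coloured by the comparison in which the gene was called (adjusted p under 0.05). Of the called genes 2053 were called in both, 1373 in DT mice and 1219 in control mice; points beyond the axis limit are drawn at it, and Selenbp1 lies at 1.10 in DT and −2.08 in control mice.

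Gene lists with unlike counts in DT and control mice are given as values, since only the difference per gene was tested. ER translocation and vesicle coats had 14 of 43 higher in DT and 30 in control mice, cytosolic ribosomal proteins 35 of 78 against 13, cholesterol synthesis 12 of 27 against 4, and ATF4 and amino acid response genes 6 of 27 lower against 15. Without mice 13 and 20 the DT counts of these lists were, in the same order, 28, 44, 16 and 11. The control counts of that fit are not given here. The ribosomal protein count also depended on other single mice, as described above. Heat shock genes had 10 of 15 higher against 9, ribosome biogenesis 28 of 40 in both, FoxO and fasting genes 8 of 24 lower in both, and PPAR and fatty acid oxidation genes 10 of 25 lower in both. Nr4a1 rose in DT mice and had a control change of 1.65 (edgeR adjusted p = 0.0718), Vgf one of 0.73 and Pcp4l1 one of −0.00, and the differences of these 3 genes between DT and control mice did not pass the test.

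The difference of the refeeding response between DT and control mice passed the test for Selenbp1 (0.00711% of tested genes higher and 0% lower with edgeR), while 1004 genes had an unadjusted p under 0.05 and DESeq2 called 14 higher and 7 lower. Selenbp1 (chr3:94933083-94944758), which encodes a selenium-binding methanethiol oxidase, stood at 1.36, 2.08 and 3.80 CPM in fasted and 2.52, 4.39 and 8.31 CPM in refed DT mice, a rise of 1.10 ± 0.31 (edgeR adjusted p = 0.0118) with overlap. In control mice it went from 3.09, 4.40 and 8.04 CPM to 0.712, 1.04 and 1.73 CPM, a change of −2.08 (edgeR adjusted p = 0.000207). The difference was 3.18 ± 0.46 (edgeR adjusted p = 0.0109), and it was called in each of the 22 fits without 1 library (2.90 to 3.39) and missed the threshold in limma voom (3.14, adjusted p = 0.0644). H4c18, Id2 and Ston2, named after their values were seen, were the 3 other genes called higher in DT and lower in control mice, and their differences did not pass. Apart from Selenbp1, the smallest p-values of the difference in each direction are given as values. On the higher side they belonged to Rem2 (0.54 in DT and −0.84 in control mice) and Cdkn1a (0.05 and −1.77). On the lower side they belonged to Atp9a (−0.77 and −0.09), Cadps (−1.29 and 0.66) and Gas2 (−0.92 and 0.40). The edgeR adjusted p of the difference was 0.445 for each. Cadps, a priming factor of dense-core granules, had a refed level of 26.0 CPM in mouse 13, where the other 5 refed mice were lower, and its change was 0.032 within the 8-library set.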

How the data were processed

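β-cells sorted by flow cytometry gave 1 library per mouse, made per the labels with the RNeasy Micro, SMARTer Ultra Low and Nextera XT kits and sequenced single-end on a HiSeq4000. The deposited table holds read counts per gene symbol, and each of its columns belongs to a sample (0 columns did not). The submitters' processing notes list the build GRCm38.p6 and, with no role or order, HTSeq 0.9.1, DESeq2 1.28.1 and STAR 2.7.2b. Settings, strandedness and gene models are not given in the sources used here. Without molecular identifiers, intervals and limits cover counting error only, and genes that share reads with near-identical copies (ribosomal proteins, Hspa8, Hspd1, Hspe1, Ins1 and Ins2, trypsins) or overlap others are uncertain.

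In R 4.3.3, edgeR 4.0.16 (filterByExpr, TMM, robust quasi-likelihood fit of 4 group means over all 22 libraries, Benjamini-Hochberg adjustment over 14064 genes) tested refed against fasted DT mice, the same in control mice and the difference of both. Standard errors derive from the F statistic, and the common biological coefficient of variation was 0.373. Single values were compared by exact permutation tests. Alternatives used DESeq2 1.42.0, limma 3.58.1 (voom), other filters and scalings, an acinar covariate, single libraries left out and, chosen after seeing the data, the set of 8 libraries as a term.

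The members and the 41 gene lists were chosen with earlier results of these data known, so a list's count is no independent evidence. Named are the 12 largest changes per direction whose mean log2 CPM reached 2 and which were called in every fit without 1 DT library, up to 4 members of each list by smallest p, the hormone genes Ins1, Ins2, Gcg, Sst and Ppy, and for the difference the called gene or genes plus the smallest p-values in each direction; gene models without a name were left out. Of the genes named by this rule 129 were called in DT mice, 125 of them in every fit without 1 DT library. Promoter windows come from a RefSeq table of GRCm38.p6. The result of 1 marker list is not reported here.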

Additional observations from a re-analysis of the deposited data

Results flagged for a closer look

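A single mouse stood far from the others of its group, by Dixon's test at the 95% level, in 37 of 346 groups of values examined (10.7%), where chance gives about 1 in 20. Mouse 13 accounts for 14 of them and mouse 20 for 6.

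In refed mouse 13 these were the share of counts from Ins1 and Ins2 (69.4%), the number of genes with a count (15863), the TMM factor (0.566), Ins1 (309546 CPM), Ins2 (916688 CPM), Gcg (26.0 CPM), mt-Nd4 (2492 CPM), Eif1 (796 CPM), Trpm5 (115 CPM), Pck2 (78.1 CPM), Cdkn1a (35.3 CPM), Cadps (26.0 CPM), Dtnbos (6.67 CPM) and Pde4c (6.31 CPM). In refed mouse 20 they were the summed immune markers (405 CPM), C1qa (44.4 CPM), Cd68 (17.4 CPM), Col3a1 (4.61 CPM), Hhex (2.33 CPM) and Cd52 (1.24 CPM). The other refed values were total counts of 24988880 and Hspd1 at 246 CPM in mouse 16, and Sst at 0.494 CPM in mouse 14.

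Among fasted DT mice, mouse 6 had the highest summed acinar markers (22699 CPM), Try4 (2051 CPM), Psmd7 (59.7 CPM) and Dcn (8.02 CPM) and the lowest Crebrf (19.9 CPM). Mouse 7 had the highest summed immune markers (251 CPM), C1qa (34.8 CPM), Cd68 (5.24 CPM) and Gcg (0.833 CPM). Mouse 8 had the highest Ppy (10.6 CPM) and Sst (4.71 CPM), mouse 9 the highest Krt19 (7.62 CPM) and the lowest Pik3r1 (22.7 CPM), and mouse 11 the highest Angptl4 (3.20 CPM).

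The response to refeeding of Selenbp1 differed between DT and control mice by 3.18 on the log2 scale, tested as the difference itself in edgeR's quasi-likelihood fit.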

How the results depend on the processing

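For refed against fasted DT mice, 1521 higher and 1905 lower calls became 2292 higher without mice 13 and 20 and 2491 higher with the library set as a term as well, 1259 lower with no expression filter and 975 lower within the 8-library set. Leaving out 1 DT library gave 1266 to 2403 higher and 1618 to 1996 lower calls, the 2403 being without mouse 13. Other scalings moved the balance: DESeq2's size factors gave 1755 higher and 1646 lower, and leaving Ins1 and Ins2 out of the library sizes 1821 and 1601. The 12 DT libraries alone gave 1043 and 1341. In control mice, 2375 genes were higher with the set term without mice 13 and 20, and single control libraries left out gave 1262 to 1446 higher and 1295 to 1606 lower. For the difference, higher calls were 14 (DESeq2), 0 (limma voom), 11 (without mice 13 and 20) and 12 (with the set term as well), and lower calls 7, 0, 3 and 6; without single libraries they were 1 higher in each fit and 0 to 1 lower. The Ins1 and Ins2 share differed by −2.14 points without mouse 13 and −1.81 without mice 13 and 20, where it was 1.83 in all. Single libraries left out gave −2.14 to 3.69 points for that share, 0.089 to 1.04 for Gcg, −0.42 to 0.082 for Sst and 1.38 to 1.96 for Ppy, which was 1.56 without mice 13 and 20. Within the 8-library set Cadps changed by 0.032. Of 163 named values, 33 lost their call and 1 reversed within the 8-library set, and 7 lost it within the other 14 libraries. Across genes, the log2 fold changes of the 2 sets had r = 0.22. Of the 3426 genes called in DT mice, 99.3% had the same sign within both sets, though their calls came from these same mice. The DT comparison within the 8-library set had 3 fasted and 2 refed mice, mouse 13 among them. The causes were not tested. No paired analysis was possible because each mouse number occurs in 1 group only. Genes under about 1 CPM rest on few counts, and a limit of 0.274 CPM applies to a count of 0 in the library where it is highest.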

Other observations

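Genes of cell division, which are rare messages in β-cells, had calls of both signs in refed against fasted DT mice. Of 34 tested cell cycle genes, 5 were called higher and 8 lower (median change −0.61), and 12 lower without mice 13 and 20. The share called was 38.2%, against 24.4% over all tested genes. Some calls depended on single mice. Named after their values were seen, Top2a (lower) lost its call in 9 of 12 fits without 1 DT mouse. Tyms and Cdk4 (both higher) lost theirs in 7 and 5. Mki67, a marker of cycling cells, stood at 0.809, 2.77 and 5.24 CPM (lowest, median, highest) in fasted and 0.0807, 0.689 and 1.28 CPM in refed DT mice, a change of −2.11 ± 0.52 (SE, edgeR adjusted p = 0.00528). Ccnb2, a mitotic cyclin, went from 1.21, 2.58 and 4.17 CPM to 0.346, 0.620 and 2.38 CPM, a change of −1.55 ± 0.44. Mki67 and Ccnb2 were chosen after their values were seen, both had overlapping groups, and the levels rest on few counts. In control mice Mki67 changed by −0.43 (edgeR adjusted p = 0.619) and Ccnb2 by −1.88 (edgeR adjusted p = 0.00743). The D-type cyclins Ccnd1 and Ccnd3, which act at the start of the cycle, rose by 1.11 ± 0.17 and 0.73 ± 0.12 without overlap, and Mcm7, a subunit of the replicative helicase, changed by −0.92 ± 0.20, from 7.86, 11.9 and 15.9 CPM to 5.58, 6.16 and 7.33 CPM.

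Markers of several other cell types were read in the same fits. Of 10 tested immune markers, 0 were called by edgeR and by DESeq2 and 0 had an unadjusted p under 0.05, while without mice 13 and 20 edgeR called 4 lower. Of 6 ductal markers 0 were called by either tool and 1 had an unadjusted p under 0.05, and 1 was called higher without mice 13 and 20. The 2 endothelial and 2 stellate and fibroblast markers that were tested had 0 calls by either tool and 0 at an unadjusted p under 0.05. Of 3 δ-cell markers edgeR and DESeq2 called 0, with 1 at an unadjusted p under 0.05. No erythroid marker had enough counts to be tested. Of the 10 β-cell markers 2 rose (G6pc2 and Iapp) and 2 fell (Slc30a8 and Slc2a2).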
